A study of Mus musculus with 26 samples.

Results

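The 8 polysome RNA libraries of library set 2 were compared with the 2 input libraries, out of 26 libraries in the series. The members were chosen by library number: 1836 to 1843 for the polysome libraries of set 2, all made after withdrawal, and 1824 and 1825 for the inputs. The tissue was the accumbens nucleus, a ventral striatal reward region, of adult mice that took saline or cocaine by long-access intravenous self-administration. The 8 polysome libraries comprised 5 from the cocaine group called nonescalating, after withdrawal, and 3 from the saline group, after withdrawal. The inputs comprised 1 nonescalating and 1 saline library of total RNA, neither labelled as withdrawal. All mice carried the Drd2-TRAP transgene of line CP101, in which an EGFP tag on ribosomal protein L10a is made in Drd2 cells, on a FVB/N-Swiss Webster background crossed to C57BL/6 for at least 9 generations. Polysomes were pulled down with antibodies to EGFP. Because all polysome libraries here belong to set 2 and to withdrawal while both inputs belong to set 1 and to no withdrawal, pull-down, set and withdrawal cannot be told apart. The labels give no length of withdrawal, and nothing in them says that each library came from its own animal or pool, so p-values measure the spread between libraries.

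The accumbens holds mainly medium spiny neurons, GABA projection cells of a D1 type and a D2 type. D2 neurons use the dopamine receptor Drd2, which couples to an inhibitory G protein and lowers cyclic AMP, the adenosine receptor Adora2a, which raises it, and the enkephalin precursor Penk. D1 neurons use Drd1, dynorphin (Pdyn) and substance P (Tac1). Cholinergic interneurons also use Drd2, and blood vessels, oligodendrocytes, astrocytes and microglia make up the rest of the tissue. Since the tag is driven by Drd2 regulatory sequence, the window around RefSeq's start of Drd2 is shown once, from RefSeq (build GRCm38.p6, chr9:49340153-49340452, plus strand, 250 bases before to 50 after that start). The GENCODE start of Drd2 given further on lies downstream of RefSeq's, beyond the end of this window. Capitals mark the motif GGGCGG and its reverse complement CCGCCC, searched on both strands with no overlap between matches.
Drd2 promoter: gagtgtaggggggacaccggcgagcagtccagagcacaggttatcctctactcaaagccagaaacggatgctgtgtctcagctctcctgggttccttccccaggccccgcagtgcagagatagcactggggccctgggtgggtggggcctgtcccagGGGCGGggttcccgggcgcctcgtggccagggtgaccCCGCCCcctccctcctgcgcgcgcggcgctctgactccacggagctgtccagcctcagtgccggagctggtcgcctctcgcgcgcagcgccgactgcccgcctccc
The window held 2 matches, and 35.7% of the 32851 promoters in the same table held at least 1. The match is a description of the letters and was not tested as a binding site.

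Each library gave raw read counts per gene, given here as CPM (counts per M gene counts, scaled with TMM factors). Polysome libraries of set 2 held 1.53 to 3.39 M gene counts (M for mega, median 2.67 M), against 37.2 M in the nonescalating input and 4.66 M in the saline input. At this depth 3 counts corresponded to 0.855 to 2.19 CPM in the polysome libraries, against 0.0834 CPM in the nonescalating and 0.602 CPM in the saline input. The same low level thus has a wider counting error in a polysome library than in an input. For genes almost absent from input, the few input counts set the error instead. Reads with several alignments made up 19.9% to 41.2% of the records in set 2 polysome libraries, against 8.05% in the nonescalating and 6.51% in the saline input, and their part in the results was not tested. Genes present in the row lists of both sets were used (31735 genes). Log2 CPM of polysome libraries of 1 group correlated at Pearson r of 0.741 to 0.895 over 13 pairs, and each pair differed by more than its sampling noise.

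The first question was which RNAs the pull-down held in excess over total RNA in set 2. Among 13642 genes tested, 80 (0.586%) differed at an adjusted p under 0.05, of which 37 (0.271%) were higher and 43 (0.315%) lower in polysome RNA than in input. An unadjusted p under 0.05, in either direction, was seen for 1111 of the 13642 genes. Adjusted p-values come from the quasi-likelihood test of edgeR, adjusted by Benjamini-Hochberg over all genes tested, a gene is said to pass where that value is under 0.05, and SE is the standard error of a log2 fold change. On the same genes DESeq2 called 1.45% higher and 0.660% lower, and limma voom with sample weights 2.32% higher and 4.77% lower, so members of lists with no edgeR call are also given by those tools. The spread comes almost wholly from the polysome libraries, as each agent had 1 input. In all 80 genes, all 8 polysome libraries lay beyond both inputs on the same side. Over all genes tested, all 8 libraries lay above both inputs in 3.01% and below both in 5.26%, the log2 fold change was positive in 49.1%, and its median was -0.02. The count depended on the inputs and on the shallowest polysome library: it was 5 (all higher) without the nonescalating input, 26 without the saline input and 168 without nonescalating replicate 5. Of the 33 named genes among the calls, 4 still passed without the nonescalating input: Drd2, Irf4, Adnp and E2f2. The direction held in all 33 under each library left out.

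Of the 3 markers of the tagged cells, Drd2 and Penk were higher in polysome RNA and Adora2a did not pass. Drd2 (chromosome 9, 49340627 to 49408177, plus strand, mm10) had 1145, 1608, 1735, 2942 and 1965 CPM in nonescalating polysome replicates 1 to 5 and 2283, 2518 and 2098 CPM in saline polysome replicates 1 to 3, against 395 CPM in the nonescalating and 279 CPM in the saline input. Every polysome library stood above both inputs, and the lowest was nonescalating replicate 1. The mean was 2037 CPM ± 559 (SD, n = 8) against 337 CPM over the inputs (log2 fold change 2.65, SE 0.35, edgeR adjusted p = 3.12e-04). Without the nonescalating input Drd2 still passed, but in the nonescalating libraries alone it did not, and across 19 alternatives its log2 fold change lay between 2.31 and 3.04, with an adjusted p of up to 0.145.

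Penk (chromosome 4, 4133531 to 4138819, minus strand), the enkephalin precursor, had 2502, 3539, 3964, 4351 and 3029 CPM in nonescalating polysome libraries and 5101, 2313 and 4896 CPM in saline polysome libraries, against 915 CPM in the nonescalating and 720 CPM in the saline input. All 8 polysome libraries exceeded both inputs, and the saline group held both the highest and the lowest of them. The log2 fold change was 2.24 (SE 0.34, edgeR adjusted p = 0.00136). It was 2.51 (edgeR adjusted p = 0.0582) without the nonescalating input and 2.02 (edgeR adjusted p = 0.0765) without the saline input, against adjusted p-values of 2.57e-09 to 0.277 over the 19 alternatives.

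Adora2a (chromosome 10, 75316877 to 75334784, plus strand), the striatal adenosine receptor, did not pass. It had 211, 450, 494, 429 and 179 CPM in nonescalating polysome libraries and 594, 417 and 604 CPM in saline polysome libraries, against 205 CPM in the nonescalating and 115 CPM in the saline input. Of the 8 polysome libraries 7 stood above both inputs, and nonescalating replicate 5 lay between the inputs. The log2 fold change was 1.42 (SE 0.42, edgeR adjusted p = 0.190). Without nonescalating replicate 5 it was 1.54 (edgeR adjusted p = 0.0353), with the saline libraries alone 2.22 (edgeR adjusted p = 0.0249), and over the 19 alternatives the adjusted p ran from 0.00705 to 1.0 and passed in 4, DESeq2 (0.0238) and limma voom (0.00705) included.

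Gucy1a3 (guanylate cyclase subunit alpha, the nitric oxide receptor of these neurons) was the third D2 list member to pass. It ranged from 610 to 1196 CPM (mean 935 ± 192, SD, n = 8) in polysome RNA, against 251 CPM in the nonescalating and 295 CPM in the saline input, and passed (log2 fold change 1.84, SE 0.32, edgeR adjusted p = 0.00496). Without the nonescalating input it was 1.70 (edgeR adjusted p = 0.401) and without the saline input 1.97 (edgeR adjusted p = 0.106). The D2 list has 11 genes, all tested. Of these 3 passed and were higher, all 11 had a positive log2 fold change (0.88 to 2.65), and the list median was 1.42. In 5 of them all 8 polysome libraries stood above both inputs. Members that did not pass included Gpr6, an orphan receptor, with 48.7 CPM ± 22.1 (SD, n = 8) in polysome RNA against 25.4 CPM in the nonescalating and 15.9 CPM in the saline input, and Sp9, a transcription factor of D2 neuron development, with 65.5 CPM ± 15.2 against 36.6 CPM in the nonescalating and 20.7 CPM in the saline input. In bulk RNA, more cells of a type and more RNA per cell cannot be told apart.

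**Figure D1:**
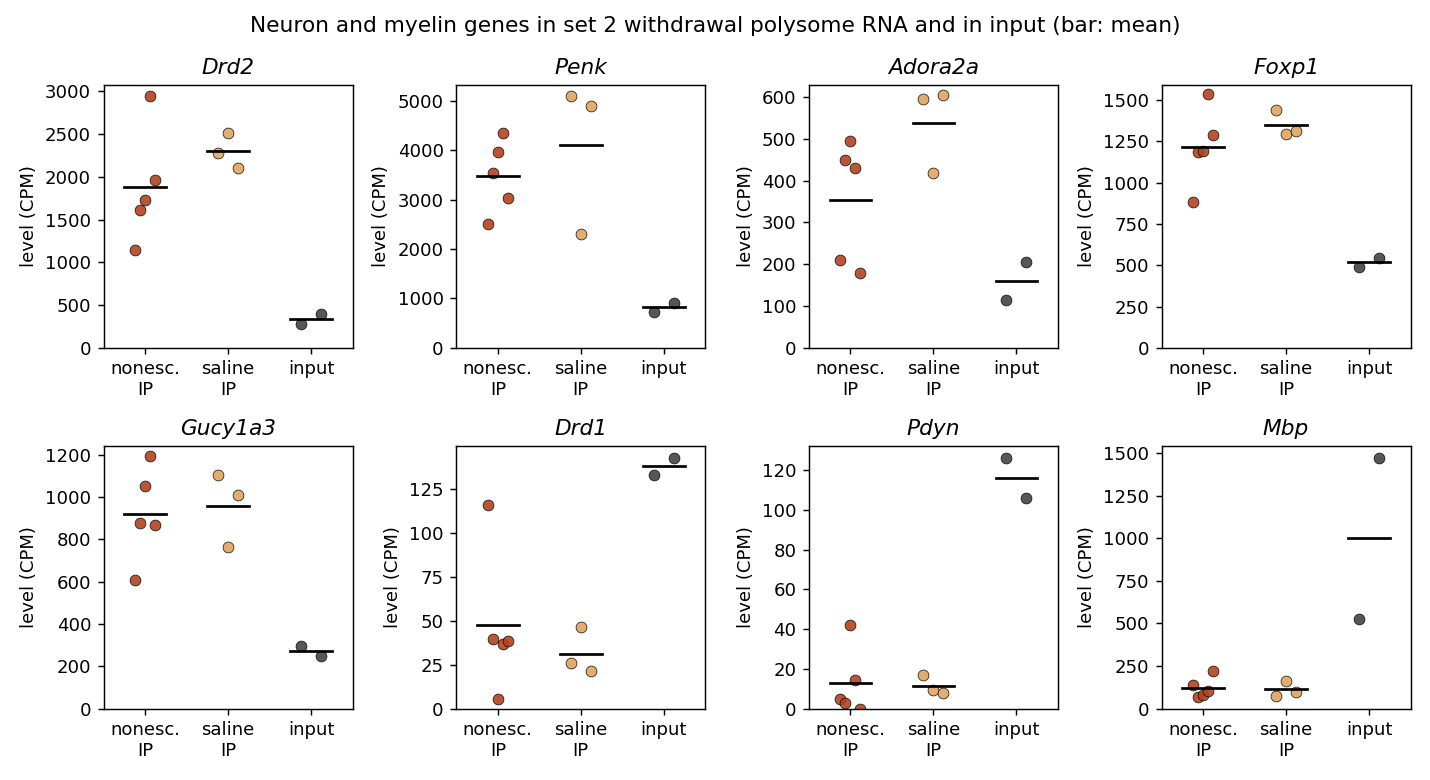
CPM of 8 marker genes (y axes) in each library: 5 nonescalating polysome libraries of set 2, 3 saline polysome libraries of set 2 and 2 inputs, with a bar at the group mean. Drd2, Penk, Foxp1 and Gucy1a3 stand above both inputs in all 8 polysome libraries and Adora2a in 7, while Drd1, Pdyn and Mbp stand below both inputs in all 8.

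Genes shared by D1 and D2 medium spiny neurons formed a list of 22, all tested. Of these 3 passed and were higher, Foxp1 and Gnal among them, 20 had a positive log2 fold change, and the median was 0.89. Foxp1, a transcription factor, had 883, 1187, 1195, 1540 and 1291 CPM in nonescalating polysome libraries and 1441, 1294 and 1316 CPM in saline polysome libraries, against 547 CPM in the nonescalating and 491 CPM in the saline input. All 8 polysome libraries stood above both inputs, and nonescalating replicate 1 was the lowest of them (log2 fold change of 1.34, edgeR adjusted p = 0.0222). Gnal, the stimulatory G protein subunit that couples Adora2a and Drd1 to adenylyl cyclase, had 3093 CPM ± 658 against 1462 CPM in the nonescalating and 1245 CPM in the saline input (log2 fold change of 1.25, edgeR adjusted p = 0.0472). Foxp1 lost its call without saline replicate 1 (edgeR adjusted p = 0.0570) or either input, and Gnal lost it without any of 5 polysome libraries (edgeR adjusted p = 0.0686 to 0.113) or either input. Ppp1r1b (DARPP-32), the phosphatase inhibitor of both cell types, had 1014 CPM ± 305 against 575 CPM in the nonescalating and 458 CPM in the saline input and did not pass with edgeR (log2 fold change 1.03, edgeR adjusted p = 0.259) but did with limma voom (0.00583).

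Among signalling genes outside the marker lists, Hpca, the neuronal calcium sensor hippocalcin, had 1707, 1740, 3278, 2747 and 2104 CPM in nonescalating polysome libraries and 3268, 2926 and 3422 CPM in saline polysome libraries, against 591 CPM in the nonescalating and 843 CPM in the saline input. All 8 polysome libraries stood above both inputs (log2 fold change 2.0, SE 0.31, edgeR adjusted p = 0.00146, and 0.163 without the nonescalating input). In the cyclic AMP list of 37 genes, 2 passed and were higher (Gnal and Rgs7bp), 22 were positive and the median was 0.19. Rgs7bp, an anchor of regulators of G protein signalling at the membrane, had 723 CPM ± 199 (SD, n = 8) in polysome RNA against 279 CPM in the nonescalating and 255 CPM in the saline input (log2 fold change of 1.48, edgeR adjusted p = 0.0467), and lost its call without any of the 3 saline libraries, nonescalating replicate 4 or either input. Of 46 neuromodulator receptor genes tested, 2 passed and were higher, Drd2 among them, 25 were positive and the median was 0.11. Of 11 neuropeptide genes tested, Penk was higher and Sst lower, and the median was -1.78.

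Of the 10 D1 genes none passed with edgeR, 9 were negative and the median was -1.62, with 4 lower at an unadjusted p under 0.05. DESeq2 called 2 of them lower, Pdyn (adjusted p = 0.0317) and Chrm4 (0.0264), and limma voom 4, which were Pdyn (2.35e-05), Chrm4 (0.00133), Drd1 (0.00137) and Tac1 (0.0111). Drd1, the D1 receptor, had 116, 39.9, 5.73, 36.8 and 38.6 CPM in nonescalating polysome libraries and 26.2, 46.4 and 21.2 CPM in saline polysome libraries, against 143 CPM in the nonescalating and 133 CPM in the saline input. All 8 polysome libraries lay below both inputs, with nonescalating replicate 1 apart from the rest and close to them (log2 fold change -1.81, SE 0.59, edgeR adjusted p = 0.261). Pdyn had 4.63, 3.04, 42.0, 14.4 and 0 CPM in nonescalating polysome libraries and 17.1, 9.28 and 7.87 CPM in saline polysome libraries, against 106 CPM in the nonescalating and 126 CPM in the saline input (log2 fold change of -3.19, SE 0.82, edgeR adjusted p = 0.0984). Its groups did not overlap, and it passed without nonescalating replicate 3 (-3.83, edgeR adjusted p = 0.0126) or replicate 5 (-3.06, edgeR adjusted p = 0.0192). Tac1 and Chrm4, a muscarinic receptor of D1 neurons, also lay below both inputs in all 8 libraries, with log2 fold changes of -1.78 and -3.18 and edgeR adjusted p-values of 0.494 and 0.123.

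Ebf1, a transcription factor of D1 neurons that brain mural cells also express, went the other way. It had 78.8, 223, 19.1, 72.5 and 56.9 CPM in nonescalating polysome libraries and 27.4, 127 and 18.5 CPM in saline polysome libraries, against 22.5 CPM in the nonescalating and 20.3 CPM in the saline input (log2 fold change of 1.78, edgeR adjusted p = 0.565). The 3 libraries highest in Ebf1 (nonescalating replicates 1 and 2, saline replicate 2) also had the highest summed pericyte and smooth muscle markers, at 740, 835 and 756 CPM. The part of vascular RNA in the Ebf1 level was not tested.

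Of 6 GABA interneuron genes tested 2 passed and were lower, all 6 were negative and the median was -3.59, also with Pvalb at its bound. The list holds 10 genes, and 3 could be tested between the sets, on polysome libraries alone. A gene near 0 in polysome RNA could be tested only where its input level was high. For such genes the filter fixed the direction, so neither the count of negative genes nor the median is evidence about the list. Sst (somatostatin) had 25.5, 3.96, 30.6, 47.5 and 48.1 CPM in nonescalating polysome libraries and 10.5, 19.7 and 27.0 CPM in saline polysome libraries, against 375 CPM in the nonescalating and 193 CPM in the saline input. The groups stood far apart (log2 fold change -3.43, SE 0.51, edgeR adjusted p = 0.00108, and 0.389 without the nonescalating input). Nos1 (neuronal nitric oxide synthase, found in the same cells) had 0.729 to 20.8 CPM in polysome RNA (median 16.4), against 121 CPM in the nonescalating and 162 CPM in the saline input (log2 fold change of -3.13, SE 0.57, edgeR adjusted p = 0.00869). It lost its call without the nonescalating input (-3.21, edgeR adjusted p = 0.643) or the saline input (-3.04, edgeR adjusted p = 0.468). In set 1 polysome RNA after withdrawal, the log2 fold change of Nos1 over the same inputs was -0.70 (edgeR adjusted p = 0.656). Nos1 was lower in set 2 than in set 1 (-2.42, edgeR adjusted p = 0.00527), and lay below both inputs in 11 of the 16 set 1 polysome libraries. The part of the library set in its low level was not tested. Pvalb had 0 counts in all 8 polysome libraries, against 6.87 CPM in the nonescalating and 4.42 CPM in the saline input.

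Markers of cholinergic interneurons, which also use Drd2, gave no edgeR or DESeq2 call in either direction and 2 lower with limma voom. Chat, the acetylcholine-synthesising enzyme, had 8.27, 27.7, 9.55, 11.4 and 0 CPM in nonescalating polysome libraries and 6.84, 45.9 and 1.71 CPM in saline polysome libraries, against 19.7 CPM in the nonescalating and 9.83 CPM in the saline input. Polysome libraries lay on both sides of the inputs (log2 fold change -0.09, SE 1.14, edgeR adjusted p = 0.997), and the error is too wide to show a change of this gene at this depth. All 6 tested genes of the list were negative, with a median of -1.0, and 1 had an unadjusted p under 0.05.

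Of 18 oligodendrocyte genes 6 passed and were lower in polysome RNA, all 18 were negative and the median log2 fold change was -2.79. Mbp, myelin basic protein, had 139, 70.6, 81.7, 105 and 218 CPM in nonescalating polysome libraries and 75.5, 162 and 99.3 CPM in saline polysome libraries, against 1473 CPM in the nonescalating and 527 CPM in the saline input. The inputs differed widely from each other, and every polysome library lay below both (log2 fold change of -2.98, SE 0.35, edgeR adjusted p = 7.81e-05, and 0.275 without the nonescalating input). Cnp and Trf (transferrin) also passed, at log2 fold changes of -2.90 and -3.78. Without the nonescalating input they were -1.64 (edgeR adjusted p = 1.0) and -3.62 (edgeR adjusted p = 0.759).

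Of 14 astrocyte genes tested 2 passed and were lower, all 14 were negative and the median was -2.53. Aldoc, an aldolase of astrocytes, had 16.5, 31.7, 28.2, 20.9 and 14.6 CPM in nonescalating polysome libraries and 6.84, 6.55 and 8.56 CPM in saline polysome libraries, against 230 CPM in the nonescalating and 95.1 CPM in the saline input. Saline polysome libraries were lower than nonescalating ones, and all were below both inputs (log2 fold change -3.48, SE 0.44, edgeR adjusted p = 2.13e-04, and 0.293 without the nonescalating input). Glul, glutamine synthetase, had 211 CPM ± 50.5 (SD, n = 8) in polysome RNA, against 804 CPM in the nonescalating and 453 CPM in the saline input (log2 fold change of -1.54, edgeR adjusted p = 0.0105), and -0.88 (edgeR adjusted p = 1.0) without the nonescalating input. Gja1 (connexin 43) had 5.61 CPM ± 6.88 against 69.8 CPM in the nonescalating and 41.1 CPM in the saline input and did not pass with edgeR (adjusted p = 0.102, and 0.0248 without saline replicate 2), but did with DESeq2 (0.0455) and limma voom (5.22e-05). The lipid carrier Apoe (10.2 CPM ± 4.99 against 177 CPM in the nonescalating and 85.3 CPM in the saline input, log2 fold change -3.63, edgeR adjusted p = 0.00146) and the protease inhibitor Cst3 (34.3 CPM ± 15.7 against 256 CPM in the nonescalating and 145 CPM in the saline input, log2 fold change -2.58, edgeR adjusted p = 0.00274), both made by glia, were lower too. Without the nonescalating input their adjusted p-values were 0.860 and 1.0.

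Microglial markers were near the detection floor. Cx3cr1, the fractalkine receptor, had 0 to 2.85 CPM in polysome RNA against 11.8 CPM in the nonescalating and 17.7 CPM in the saline input, with 4 polysome libraries at 0. Of 10 microglial genes tested none passed with edgeR or DESeq2, limma voom called 4 lower, 9 were negative, the median was -1.92 and 1 was lower at an unadjusted p under 0.05. The list holds 16 genes, and 3 could be tested between the sets, on polysome libraries alone. For genes seen almost only in the inputs the filter fixed the direction. The count of negative genes and the median are thus not evidence about the list.

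**Figure D2:**
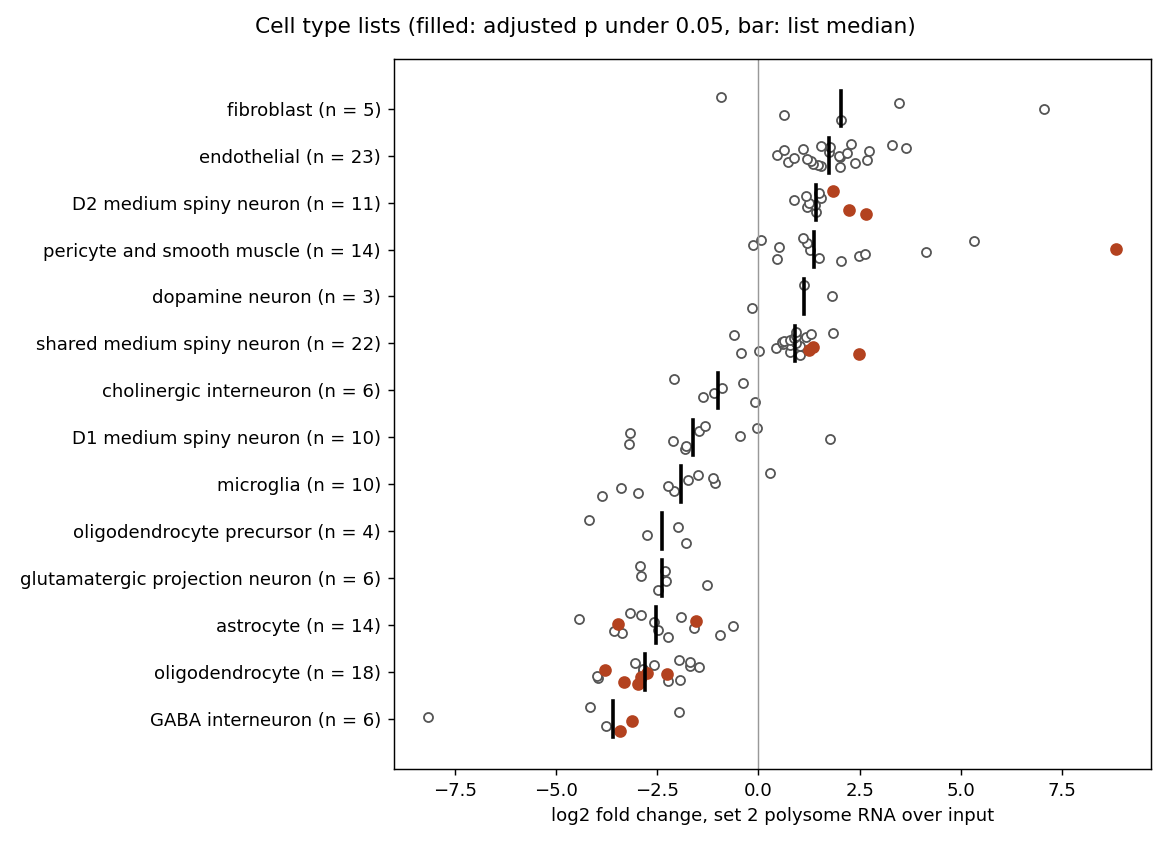
Log2 fold change of set 2 polysome RNA over input (x axis) for each tested gene of 14 cell type lists (y axis, ordered by median), filled where the adjusted p was under 0.05, with a bar at the list median. Oligodendrocyte and astrocyte genes lie left of 0 throughout, D2 and endothelial genes right of it, and no endothelial gene is filled, the fill being edgeR's.

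Blood vessel markers were read beside the D2 markers in each library. Summed over 23 endothelial genes, the polysome libraries of set 2 had 2173, 3692, 974, 1370 and 1660 CPM (nonescalating) and 746, 2887 and 873 CPM (saline), against 325 CPM in the nonescalating and 720 CPM in the saline input. The 6 polysome libraries of set 1 after withdrawal, by contrast, had 2420 to 12097 CPM (median 5411). Set 2 thus still stood above both inputs in all 8 libraries, by little in saline replicate 1. All 23 endothelial genes had a positive log2 fold change over input (median 1.75), none passed with edgeR and 11 were higher at an unadjusted p under 0.05. DESeq2 called 2 of them higher and limma voom 10. Sox17, a transcription factor of arterial endothelium, and Vwf, von Willebrand factor, had the smallest p of the list (log2 fold changes 3.66 and 3.30, edgeR adjusted p = 0.213 and 0.0918). Both passed with DESeq2 (adjusted p = 0.00382 for Sox17 and 3.21e-04 for Vwf) and with limma voom (0.00180 for Sox17 and 1.85e-04 for Vwf). With edgeR, Vwf passed without saline replicate 1 (3.59, edgeR adjusted p = 0.0343) or nonescalating replicate 5 (3.39, edgeR adjusted p = 0.0253).

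The difference between the sets was tested directly, without inputs, in 8 set 2 and 6 set 1 polysome libraries after withdrawal with agent as a term. Median depth was 8.25 M gene counts in set 1 and 2.67 M in set 2, and the part of depth was not tested. Among 11803 genes tested, 364 (3.08%) passed, 144 (1.22%) higher and 220 (1.86%) lower in set 2, while DESeq2 called 3.01% higher and 5.19% lower. The count ran from 93 (without nonescalating set 1 replicate 1) to 484 (without saline set 1 replicate 2) when 1 library was left out. All 23 endothelial genes had a negative log2 fold change (50.7% of all genes tested had one), 16 passed and were lower, and the median was -2.17. Flt1, a VEGF receptor, had 388, 461, 154, 164 and 261 CPM in nonescalating set 2 libraries and 123, 327 and 136 CPM in saline set 2 libraries, against 280 to 2078 CPM in set 1 (mean 1119 ± 679, SD, n = 6). The ranges overlapped, and the set 2 over set 1 log2 fold change was -2.17 (edgeR adjusted p = 0.00443). Pecam1, an adhesion molecule of endothelial junctions, was lower as well (39.5 CPM ± 38.2, n = 8, against 187 CPM ± 107, n = 6, SDs, edgeR adjusted p = 0.0438). Cldn5, the tight junction claudin, did not pass (-1.97, edgeR adjusted p = 0.138).

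Mural genes differed between the sets as well. Rgs5, a pericyte regulator of G protein signalling, had 153, 219, 82.1, 97.2 and 109 CPM in nonescalating set 2 libraries and 44.2, 293 and 88.3 CPM in saline set 2 libraries, against 823 to 2794 CPM in set 1 after withdrawal. No library of one set reached the other (log2 fold change -3.61, SE 0.40, edgeR adjusted p = 5.67e-05). The share of all genes with such a gap was not counted. Rgs5 in set 2 lay on both sides of the inputs, at 90.4 CPM in the nonescalating and 113 CPM in the saline one (log2 fold change 0.47, edgeR adjusted p = 0.963). Hspg2, the basement membrane proteoglycan perlecan, had 44.9 CPM ± 31.7 (SD, n = 8) in set 2 and 376 CPM ± 209 (SD, n = 6) in set 1 (log2 fold change -3.12, edgeR adjusted p = 6.00e-04). Of 15 pericyte and smooth muscle genes tested between the sets, all were negative and 5 passed (median -1.86), and of 13 basement membrane genes all were negative and 8 passed (median -1.97).

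Myh11, the smooth muscle myosin, was the mural gene that passed against input. It had 157, 51.1, 73.1, 4.94 and 8.02 CPM in nonescalating polysome libraries and 35.1, 59.5 and 37.0 CPM in saline polysome libraries, against 0.139 CPM in the nonescalating and 0 CPM in the saline input. Even the lowest polysome library exceeded the inputs (log2 fold change 8.84, SE 1.51, edgeR adjusted p = 0.00478), but the call was lost without the nonescalating input (edgeR adjusted p = 0.428) or the saline input (edgeR adjusted p = 0.202). Between the sets it did not pass (131 CPM ± 86.7, SD, n = 6, in set 1, edgeR adjusted p = 0.245). Of 14 mural genes tested against input, Myh11 alone passed, 13 were positive and the median was 1.38.

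Between the sets none of the D2 genes passed. Drd2 averaged 2037 CPM ± 559 (SD, n = 8) in set 2 and 2041 CPM ± 783 (SD, n = 6) in set 1 after withdrawal (log2 fold change 0.11, SE 0.24, edgeR adjusted p = 0.862). For Penk the difference was 0.29 (edgeR adjusted p = 0.540) and for Adora2a -0.50 (edgeR adjusted p = 0.307). Of the 11 D2 genes none passed with edgeR or DESeq2, 3 had an unadjusted p under 0.05, 5 were positive and the median was -0.09. Over all genes tested between the sets, 2120 of 11803 had such a p. The differences are given with their errors, and a p that misses the threshold does not show equal levels.

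The set 1 polysome libraries after withdrawal share the same 2 inputs, so their values are given beside those of set 2 only. Over input, Drd2 had a log2 fold change of 2.65 in set 2 and 2.61 in set 1, Penk 2.24 and 2.0, and Adora2a 1.42 and 2.02. Among vascular genes, again with set 2 before set 1, the values were 0.47 and 4.08 for Rgs5, 1.56 and 3.79 for Pecam1, and 1.57 and 4.75 for Hspg2. The endothelial list median was 1.75 with 0 called by edgeR in set 2, and 3.96 with 13 higher in set 1, where 0.943% of 15484 genes were called higher and 0.278% lower.

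Within set 2 the D2 and endothelial sums varied between libraries. In rising order of the endothelial sum (saline 1, saline 3, nonescalating 3, 4, 5, nonescalating 1, saline 2 and nonescalating 2) the summed CPM of the 11 D2 genes was 10098, 9553, 8147, 9949, 6524, 5176, 6957 and 7280. The 4 libraries with the least endothelial RNA thus had the most D2 RNA, and the library with the most endothelial RNA had 7280 CPM. All 8 stood above the inputs, at 2277 CPM (nonescalating) and 1765 CPM (saline). Since CPM are shares of a whole, a gain in one group of genes lowers the others, and the part of vascular RNA in the D2 level was not tested.

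**Figure D3:**
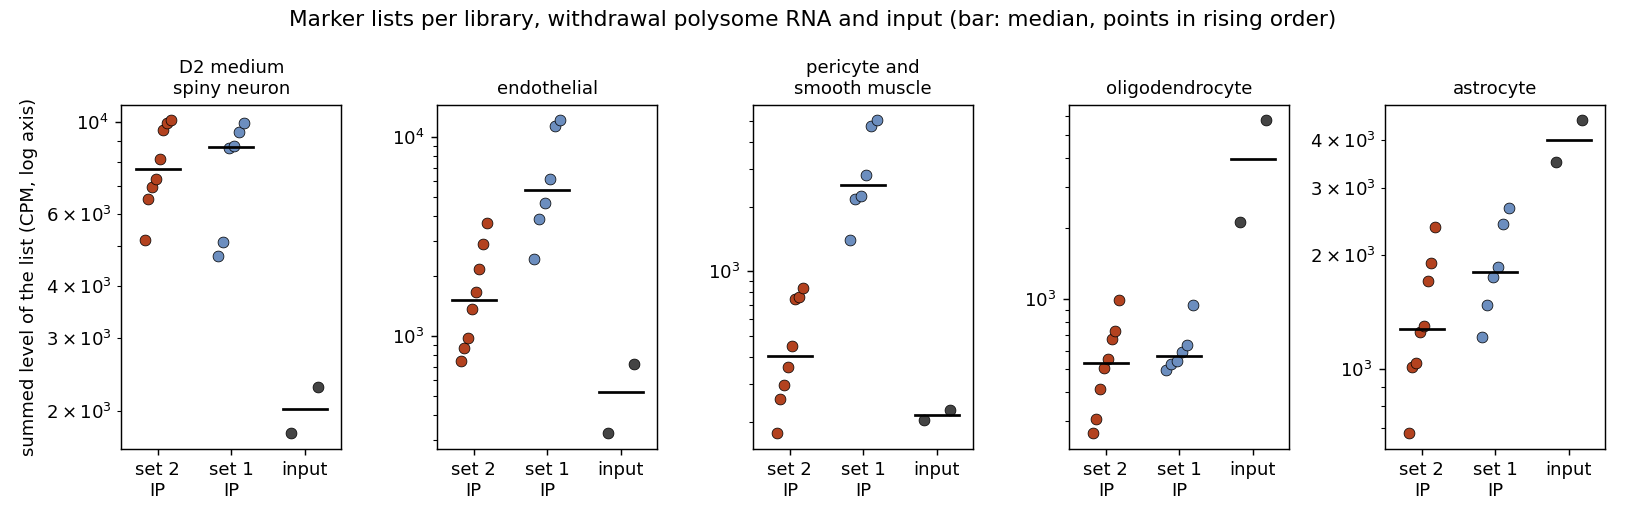
Summed CPM (log10 axis) of 5 cell type lists in each polysome library of set 2 (n = 8), each polysome library of set 1 after withdrawal (n = 6) and each input (n = 2), with points in rising order and a bar at the median. D2 sums overlap between the sets and lie above the inputs, endothelial sums run from 746 to 3692 CPM in set 2 and from 2420 to 12097 CPM in set 1, and mural sums do not overlap between the sets.

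A small group of genes was abundant in polysome RNA and almost absent from input. For part of them this was not particular to set 2. Set 1 polysome RNA after withdrawal had log2 fold changes over the same inputs of 8.40 for Irf4, 10.52 for Pou2af1 and 10.12 for E2f2. Adnp and mKIAA0217, given further on, were at most at trace level in set 1. Irf4, a transcription factor best known from lymphocytes, had 169, 240, 456, 360 and 653 CPM in nonescalating polysome libraries and 202, 480 and 304 CPM in saline polysome libraries, against 0.695 CPM in the nonescalating and 0.201 CPM in the saline input. Every polysome library was far above both inputs, and Irf4 passed in all 19 alternatives (log2 fold change 9.38, SE 0.77, edgeR adjusted p = 5.10e-07, up to 0.0163). Pou2af1, a coactivator of B cell octamer factors, had 47.3, 68.2, 269, 201 and 668 CPM in nonescalating polysome libraries and 145, 225 and 123 CPM in saline polysome libraries, against 0.111 CPM in the nonescalating and 0 CPM in the saline input. Its groups stood far apart too (log2 fold change 11.13, SE 1.52, edgeR adjusted p = 0.00306), but it lost its call without the nonescalating input (edgeR adjusted p = 0.535) or the saline input (edgeR adjusted p = 0.279).

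Other genes with the smallest p-values were also far above input. Trp53inp1, a p53 target linked to cell death and autophagy, had 195, 142, 301, 248 and 816 CPM in nonescalating polysome libraries and 201, 329 and 213 CPM in saline polysome libraries, against 5.23 CPM in the nonescalating and 5.22 CPM in the saline input, and passed (log2 fold change 5.86, SE 0.71, edgeR adjusted p = 1.48e-04, and 0.114 without the nonescalating input). Ccnd2, cyclin D2, had 295 to 1568 CPM in polysome RNA (median 662), against 27.6 CPM in the nonescalating and 30.3 CPM in the saline input (log2 fold change of 4.78, SE 0.68, edgeR adjusted p = 0.00147). The transcription factor Elk4 had 554 CPM ± 250 (SD, n = 8) in polysome RNA, against 72.3 CPM in the nonescalating and 46.4 CPM in the saline input (log2 fold change of 3.27, edgeR adjusted p = 0.00201). Ccnd2 and Elk4 lost their calls without either input, at adjusted p-values of 0.175 to 0.395. E2f2, a cell cycle transcription factor, had 1716 counts over the 8 polysome libraries and 2 over both inputs, a ratio of CPM of 1700 with a 95% counting interval of 470 to 14050. A list of 20 genes of the B lineage and plasma cells was made after Irf4 and Pou2af1 were seen, and is given as a description. Of these 7 had enough counts to be tested, and 3 passed (Irf4, Pou2af1 and Fam46c). All 7 were positive, with a median log2 fold change of 6.88, or 4.99 with genes at 0 in the inputs at their bound. A gene near 0 in the inputs could be tested only where its polysome counts were high. For such genes the filter fixed the direction, so neither the count of positive genes nor the median is evidence about the list. Fam46c had 54.4 CPM ± 32.4 (SD, n = 8) in polysome RNA, against 1.25 CPM in the nonescalating and 0.201 CPM in the saline input (log2 fold change 6.11, edgeR adjusted p = 0.00501). Prdm1, the plasma cell transcription factor, had 15.4 CPM ± 12.3 against 1.58 CPM in the nonescalating and 0.602 CPM in the saline input, with all 8 above both inputs, and did not pass (3.76, edgeR adjusted p = 0.289). The other 13 genes were too low to test, among them the B cell antigens Cd79a at 0 to 0.304 CPM and Ms4a1 at 0 to 1.09 CPM in polysome RNA. The summed level of the list was 324 to 1543 CPM in polysome RNA, against 58.7 CPM in the nonescalating and 56.8 CPM in the saline input.

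Levels of part of this group moved with library depth inside set 2. Over the 8 polysome libraries, log2(CPM + 1) of Trp53inp1 correlated with gene counts at Pearson r = -0.849 (exact permutation p = 0.00206, adjusted over 12 genes 0.0247) and Spearman rho = -0.881 (exact permutation p = 0.00724, adjusted 0.0429). For Irf4 Pearson r was -0.862 (exact permutation p = 0.00749, adjusted 0.0449) and Spearman rho -0.857 (exact permutation p = 0.0107, adjusted 0.0429). Ccnd2 had the same rho and adjusted p as Irf4, but its Pearson r was -0.752 (exact permutation p = 0.0337, adjusted 0.105). For Adnp, E2f2, Elk4, Pou2af1 and mKIAA0217 the adjusted permutation p was 0.0882 or more by both measures. Drd2 gave r = -0.0789 and rho = -0.143 (exact permutation p = 0.857 and 0.752), and Penk r = 0.625 and rho = 0.619 (exact permutation p = 0.101 and 0.115). Without the 2 libraries farthest from the median depth (nonescalating replicate 5 and saline replicate 2), r was -0.678 for Trp53inp1 and -0.673 for Irf4 over 6 libraries. The agent groups hold 5 and 3 libraries, too few for a value within each. CPM are divided by depth, so the axes are not independent.

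**Figure D4:**
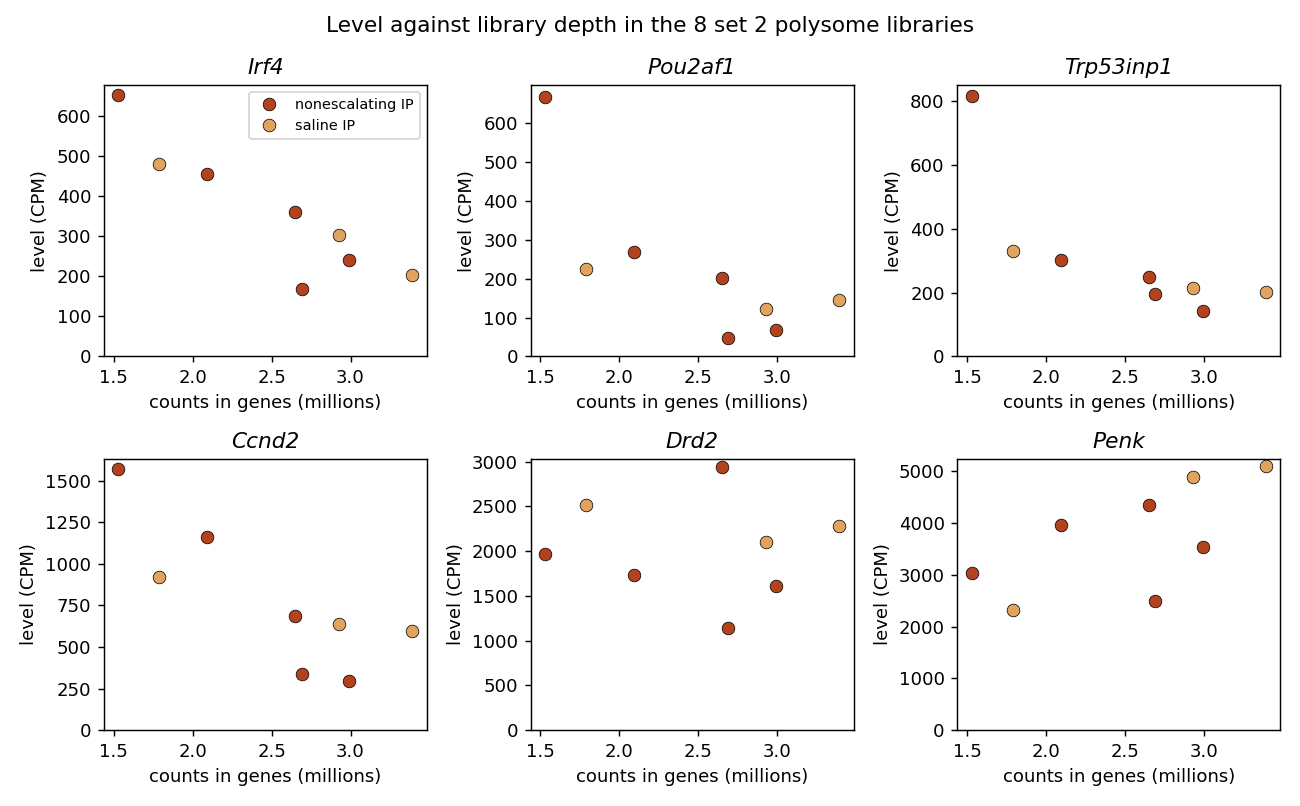
CPM of 6 genes (y axes) against gene counts in M (x axes) in the 8 set 2 polysome libraries, coloured by agent. Irf4, Pou2af1, Trp53inp1 and Ccnd2 are highest at 1.53 M counts, in nonescalating replicate 5, while Drd2 and Penk are not.

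Some of the strongest differences from input followed the library set. Adnp, a neuroprotective homeobox protein, had 166, 179, 193, 271 and 341 CPM in nonescalating polysome libraries of set 2 and 272, 243 and 306 CPM in saline ones, 0 to 1.29 CPM in all 16 polysome libraries of set 1, and 0.0556 CPM in the nonescalating and 0 CPM in the saline input. Both row lists hold the gene, yet it was seen at more than trace level in set 2 alone, with 4968 counts there against 2 in the inputs (ratio 4922, 95% counting interval 1362 to 40655). Between the sets its log2 fold change was 10.44 (SE 0.54, edgeR adjusted p = 3.65e-11). The symbol mKIAA0217 had 12.7 to 93.3 CPM in set 2 and 0 in all 16 set 1 polysome libraries and both inputs. Against a floor of 3 counts over both inputs it was at least 522-fold higher in set 2 polysome RNA.

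Tcf20, a transcriptional coactivator, had 427 to 720 CPM in set 2 polysome RNA (mean 563 ± 115, SD, n = 8), 169 CPM ± 47.9 in set 1 after withdrawal (SD, n = 6), and 182 CPM in the nonescalating and 198 CPM in the saline input. It was higher over input in set 2 (log2 fold change 1.64, edgeR adjusted p = 0.00966) and read -0.17 (edgeR adjusted p = 0.942) in set 1. It lost its call without the nonescalating input (edgeR adjusted p = 0.389) or the saline input (edgeR adjusted p = 0.336). Set 2 and set 1 differed directly by 1.84 (edgeR adjusted p = 5.25e-05).

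Several genes low in set 2 were lower there than in set 1. Of the 16 set 1 polysome libraries, 9 lay below both inputs for Abat, 15 for Scarb2 and 3 for Ubb. Abat, the GABA-degrading transaminase, had 68.5, 81.3, 127, 74.8 and 43.0 CPM in nonescalating set 2 libraries and 168, 114 and 131 CPM in saline ones, 458 CPM ± 140 (SD, n = 6) in set 1 after withdrawal, and 676 CPM in the nonescalating and 538 CPM in the saline input. It was lower than input in set 2 (log2 fold change -2.57, SE 0.33, edgeR adjusted p = 2.13e-04, and 0.362 without the nonescalating input) and lower than set 1 (-2.10, edgeR adjusted p = 8.39e-05). Scarb2, a lysosomal membrane receptor, had 3.34 to 38.7 CPM in set 2 polysome RNA, against 109 CPM ± 27.7 in set 1 and 223 CPM in the nonescalating and 177 CPM in the saline input (log2 fold change over input of -4.17, edgeR adjusted p = 4.24e-04, and 0.0924 to 0.110 without either input). Ubb, a ubiquitin gene, had 1.64 to 10.3 CPM in set 2, 112 CPM ± 40.1 in set 1 and 109 CPM in the nonescalating and 60.2 CPM in the saline input. Its log2 fold change over input was -3.62 in set 2 (edgeR adjusted p = 0.00964, lost without either input at 0.183 and 0.995) and 0.44 in set 1 (edgeR adjusted p = 0.771).

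Apex1, a DNA repair endonuclease, had 0 to 0.855 CPM in set 2 polysome RNA, 31.2 CPM ± 22.1 (SD, n = 6) in set 1 after withdrawal, and 23.5 CPM in the nonescalating and 53.6 CPM in the saline input (log2 fold change over input of -6.87, edgeR adjusted p = 0.00339, and 0.450 to 0.571 without either input). Apln, the peptide apelin, had 1 count in the 8 set 2 libraries and 539 in the inputs, and was below both inputs in 15 of the 16 set 1 polysome libraries too. Over input its log2 fold change in set 1 after withdrawal was -3.51 (edgeR adjusted p = 0.233), and it was too low to test between the sets. The row lists of the sets differ (32531 genes in set 2 and 32657 in set 1), and the part of the gene models or alignment behind them in these differences was not tested.

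**Figure D5:**
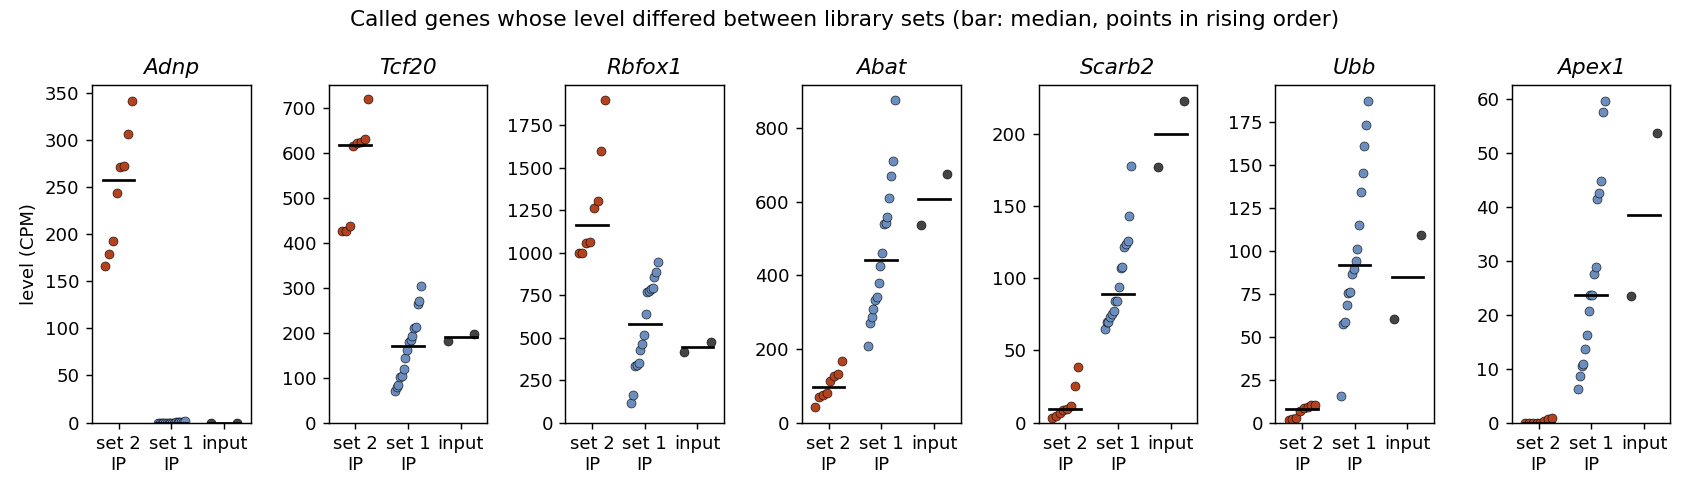
CPM of 7 genes (y axes) in the 8 polysome libraries of set 2, all 16 polysome libraries of set 1 and the 2 inputs, with points in rising order and a bar at the median. Adnp lies at 166 to 341 CPM in set 2 and at 1.29 CPM or less elsewhere, and Ubb and Apex1 are low in set 2, with set 1 medians of 91.7 and 23.6 CPM.

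Broad neuronal and housekeeping lists gave few calls. Of 77 cytosolic ribosomal protein genes none passed with edgeR (1 with DESeq2, 2 with limma voom), 67 were positive and the median log2 fold change over input was 0.55, with 9 higher at an unadjusted p under 0.05. Rpl10a, the gene of the tagged protein, had 205, 210, 321, 343 and 251 CPM in nonescalating polysome libraries and 277, 264 and 331 CPM in saline polysome libraries, against 154 CPM in the nonescalating and 77.9 CPM in the saline input. It stood above both inputs in all 8 and did not pass with edgeR (log2 fold change 1.31, SE 0.36, edgeR adjusted p = 0.125), but did with DESeq2 (adjusted p = 0.00673) and limma voom (0.0136). Oxidative phosphorylation genes gave 0 edgeR calls in 75 (57 positive, median 0.40, 4 higher at an unadjusted p under 0.05), 1 with DESeq2 and 0 with limma voom. Ionotropic glutamate receptor genes (31 tested, median -0.17), potassium channels (34 tested, median 0.24), presynaptic vesicle genes (28 tested, median -0.18) and immediate early genes (24 tested, median -0.09) gave 0 edgeR calls each, with 4, 5, 6 and 3 genes at an unadjusted p under 0.05. In the same order DESeq2 called 0, 1, 0 and 3 and limma voom 5, 3, 5 and 5. In the GABA synthesis and receptor list Abat alone passed among 19. Over all genes tested, 1111 of 13642 had an unadjusted p under 0.05, in either direction.

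The nuclear RNAs used as a check of the pull-down did not pass with edgeR in set 2. Meg3 had 12913, 6293, 3004, 2191 and 5117 CPM in nonescalating polysome libraries and 1314, 2661 and 1605 CPM in saline polysome libraries, against 7515 CPM in the nonescalating and 9399 CPM in the saline input. Nonescalating replicate 1 stood above both inputs and the other 7 below both (log2 fold change -1.47, edgeR adjusted p = 0.487). Rian, from the same imprinted locus, had 84.4 to 428 CPM in polysome RNA (median 174), against 389 CPM in the nonescalating and 560 CPM in the saline input (-1.52, edgeR adjusted p = 0.0907, and 0.0219 without nonescalating replicate 1), and passed with DESeq2 (adjusted p = 0.0427) and limma voom (0.00588). In set 1 after withdrawal, over the same inputs, Meg3 (-2.10, edgeR adjusted p = 0.0326) and Rian (-2.43, edgeR adjusted p = 0.0170) passed. In set 2 Malat1 overlapped the inputs (17000 CPM ± 9661, SD, n = 8, against 10466 CPM in the nonescalating and 21982 CPM in the saline input).

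The polysome libraries pooled 2 agents, so nonescalating cocaine was also compared with saline inside set 2. No gene of 11884 passed with edgeR (0%), 643 had an unadjusted p under 0.05, the smallest adjusted p was 0.877, and DESeq2 called 38 (36 higher or 0.303%, 2 lower or 0.0168%). Drd2 averaged 1879 CPM ± 665 in nonescalating libraries (SD, n = 5) and 2299 CPM ± 211 in saline libraries (SD, n = 3), a log2 fold change of -0.26 (edgeR adjusted p = 0.978). The smallest p belonged to Zfp182, a zinc finger gene, with 89.7, 77.3, 22.4, 49.4 and 234 CPM in nonescalating libraries against 7.98, 8.74 and 5.82 CPM in saline libraries. Zfp182 did not pass with edgeR (log2 fold change 3.70, SE 0.72, edgeR adjusted p = 0.877). Its groups did not overlap, but it was picked as the smallest p of 11884 genes. The share of all genes with separate groups was not counted. Scn9a, a sodium channel, had 27.1 to 139 CPM in nonescalating and 3.08 to 12.6 CPM in saline libraries, and Sec14l1, a lipid transfer protein gene, had 96.3 to 199 CPM in nonescalating and 374 to 387 CPM in saline libraries. Both were likewise picked by their small p, and neither passed with edgeR. DESeq2 called Zfp182 (adjusted p = 5.80e-05), Scn9a (0.00359) and Meg3 (0.0481) higher and Sec14l1 (0.0401) lower in nonescalating libraries. Malat1 and Meg3 read 1.24 and 1.70 on the log2 scale (edgeR adjusted p = 0.877 each) and did not pass with edgeR.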

How the data were processed

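RNA from immunopurified polysomes and total input RNA of the accumbens nucleus was sequenced. The deposited files hold raw read counts per gene symbol, made with STAR 2.0.0e and HTSeq on mm10, per the submitters' processing notes. Neither the HTSeq version, the annotation nor the strand setting is named there, so overlapping, antisense and near-identical genes remain uncertain. Summary lines that name no gene were left out: reads in genes made up 13.7% to 31.4% of records in set 2 polysome libraries, against 58.4% in the nonescalating and 45.6% in the saline input. The 31735 genes in both row lists were kept, with 99.1% to 99.3% of the gene counts.

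Tests used R 4.3.3 and edgeR 4.0.16 (robust quasi-likelihood test, TMM, filterByExpr with a minimum count of 10, Benjamini-Hochberg threshold 0.05), with agent as a term except between agents. Alternatives used limma 3.58.1 and DESeq2 1.42.0. SE is the log2 fold change over the square root of F. The scripts were tested on simulated data. Intervals and floors (3 counts) cover counting error only, since reads without molecular identifiers are not independent molecules. Gene coordinates are from GENCODE M21 (GRCm38).

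The members and lists were chosen with earlier results of these data known. Genes were eligible to be named by 4 rules: the 12 smallest p-values per direction among calls, at a mean log2 CPM of 2 or more and without predicted symbols; up to 4 passing members of a list, or the 2 smallest p-values where none passed; the 5 smallest p-values of the other comparisons; and a short list of cell markers. The text prints part of them, and a few genes are not reported here. Gpr6, Sp9, Cd79a, Ms4a1, Adgrf5, Ttc12, Ankk1 and Ncam1 were picked after their values were seen, as were Fam46c and Prdm1 with their list, and the set 1 libraries over input were added at that stage too.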

Additional observations from a re-analysis of the deposited data

Results flagged for a closer look

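Of 90 genes examined, 18 had 1 of the 8 set 2 polysome libraries standing apart from the others by a gap test. For normally distributed values of 1 group, that test flags about 1 of 20 (about 4 of 90). It was run on CPM without logs and over both agents together, so that rate may not hold here. Nonescalating replicate 5, the shallowest library at 1.53 M gene counts, accounted for 6. It was highest for Pou2af1 (668 CPM), Trp53inp1 (816 CPM), the antiproliferative gene Btg2 (89.0 CPM), the GABA transporter gene Slc6a13 (48.9 CPM) and Zfp182 (234 CPM), and lowest for Nos1 (0.729 CPM).

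Nonescalating replicate 1 accounted for 5, being highest for Drd1 (116 CPM), Myh11 (157 CPM), the imprinted RNAs Meg3 (12913 CPM) and Rian (428 CPM), and the proteoglycan gene Vcan (74.1 CPM). Nonescalating replicate 3 was highest for Pdyn (42.0 CPM), the oligodendrocyte precursor receptor Gpr17 (22.0 CPM) and Scn9a (139 CPM). Nonescalating replicate 2 was highest for Ddc (41.1 CPM), the decarboxylase of dopamine synthesis. Saline replicate 2 was highest for Apln (0.546 CPM, 1 count), the complement gene C1qb (4.37 CPM) and the immunoproteasome gene Psmb9 (28.9 CPM).

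The choroid plexus gene Kl went opposite ways by agent. It averaged 2.31 CPM in nonescalating polysome libraries, all below their own input at 9.31 CPM, and had 2.85, 6.55 and 7.19 CPM in saline polysome libraries, all above theirs at 2.01 CPM. The difference was not tested, and these levels rest on few counts.

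Reads with several alignments, which enter no gene count, had a median of 36.0% of records in set 2 polysome libraries (19.9% to 41.2%), against 8.05% in the nonescalating and 6.51% in the saline input. In the 6 polysome libraries of set 1 after withdrawal they made up 13.7% to 36.7%.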

How the results depend on the processing

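For set 2 polysome RNA over input, 80 genes were called (37 higher, 43 lower). The count was 288 with DESeq2 (198 higher, 90 lower), 967 with limma voom and sample weights (316 higher, 651 lower), 34 in a fit of all 26 libraries (10 higher, 24 lower), 16 in nonescalating libraries alone (5 higher, 11 lower), 40 in saline libraries alone (21 higher, 19 lower) and 189 in set 1 over the same inputs (146 higher, 43 lower). Leaving out 1 library gave 5 to 168 calls. The cause of these changes was not tested, and fits that leave libraries out also hold fewer of them. Counts with median-of-ratios scaling (68), no filter (115), a CPM of at least 1 (77) and no agent term (85) stayed within 1.5 times. The median of all genes moved by -0.12 with limma voom and by 0.04 with median-of-ratios scaling. The 33 named genes that were called kept their direction under each of these settings other than set 1, apart from 2 not tested at a CPM of at least 1. In set 1, Ubb (0.44) and Tcf20 (-0.17) changed sign.

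Between the sets 364 genes were called, DESeq2 called 967 (355 higher, 612 lower), and leaving out 1 library gave 93 to 484. The count fell by more than 1.5 times without saline set 2 replicate 1 (189) or 3 (207), nonescalating set 2 replicate 3 (226) or 4 (190), saline set 1 replicate 1 (168), and nonescalating set 1 replicate 1 (93) or 2 (229). For nonescalating against saline, DESeq2 called 38 (36 higher, 2 lower, 3 of them without a count in one group), no filter gave 1, and each library left out gave 0.

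No paired analysis was possible because the inputs carry replicate number 1 alone. In the other comparisons, same-numbered deviations correlated at -0.202 to 0.140 between the sets and -0.0201 to 0.125 between the agents. Between the sets, 0 of 3 saline and 1 of 3 nonescalating libraries matched best with their own number. Between the agents 2 of 3 did. With 3 pairs in each check, pairing by number was neither shown nor excluded. With a replicate block 264 genes were called between the sets and 0 between the agents. Only 2 inputs entered the comparison, 1 for each agent. Depth limits genes of few counts, as 1 count was 0.546 CPM in saline replicate 2.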

Other observations

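Genes beside Drd2 on the chromosome were read as well (chosen after values were seen). Ankk1, the nearest, lies 7017 bases beyond the end of Drd2. It had 72.9 CPM ± 26.4 (SD, n = 8) in set 2 polysome RNA, against 29.5 CPM in the nonescalating and 21.9 CPM in the saline input, and did not pass (log2 fold change 1.52, edgeR adjusted p = 0.272). Ttc12, at 28786 bases, had 183, 244, 96.9, 251 and 130 CPM in nonescalating polysome libraries and 319, 313 and 329 CPM in saline ones, against 36.3 CPM in the nonescalating and 63.2 CPM in the saline input. All 8 stood above both inputs, and it passed (2.37, SE 0.41, edgeR adjusted p = 0.00496). Ncam1, a neural adhesion molecule at 93959 bases, had 380 CPM ± 103 in polysome RNA, against 681 CPM in the nonescalating and 617 CPM in the saline input (-0.75, edgeR adjusted p = 0.412).

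Adgrf5, an adhesion receptor of endothelium outside the lists, passed with edgeR although no listed endothelial gene did with that tool (also chosen after its values were seen). It had 435, 509, 159, 243 and 330 CPM in nonescalating polysome libraries and 104, 467 and 113 CPM in saline ones, against 36.4 CPM in the nonescalating and 47.8 CPM in the saline input (log2 fold change 2.74, edgeR adjusted p = 0.0389). The 3 libraries highest in it were also the 3 highest in the endothelial sum. It was lower in set 2 than in set 1 (-1.52, edgeR adjusted p = 0.0411).

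Of 18 MHC class I and interferon response genes tested against input none passed with edgeR or limma voom, DESeq2 called 2 higher, 16 were positive, the median was 1.31 and 4 were higher at an unadjusted p under 0.05. B2m, the MHC class I light chain, had 22.2 to 143 CPM in polysome RNA (median 58.4), against 32.2 CPM in the nonescalating and 12.8 CPM in the saline input (edgeR adjusted p = 0.441). Between the sets all 16 tested were negative (median -1.24) and 1 passed. The remaining lists gave no edgeR call over input: fibroblast (4 of 5 positive, median 2.04), dopamine neuron (2 of 3 positive, 1.14), basement membrane (10 of 13 positive, 0.98), glutamatergic neuron (0 of 6 positive, -2.38), oligodendrocyte precursor (0 of 4 positive, -2.37), ependymal (1 of 2 positive, -0.21), red blood cell (0 of 2 positive, -2.03) and nuclear RNA genes (3 of 10 positive, -0.73). At an unadjusted p under 0.05 they held 1, 0, 3, 1, 2, 0, 0 and 2 genes in the same order. For members near 0 in polysome RNA or in input the filter fixed the direction, so their signs are not evidence about a list. DESeq2 called 1 fibroblast gene higher and 1 nuclear RNA lower. limma voom called 3 basement membrane genes and 1 nuclear RNA higher, and 1 basement membrane gene, 3 glutamatergic, 3 precursor and 1 nuclear RNA genes lower. Of 23 striatal transcription factors 16 were positive (median 0.44) and 1, Foxp1, passed with edgeR.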
